A study of Mus musculus with 12 samples.

Results

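The naive pluripotency transcription factors outside the Klf family were followed through the first 24 h of exit from naive culture. The members are Nanog, Esrrb, Tfcp2l1, Tbx3, Nr0b1, Nr5a2, Prdm14, Zfp42, Spic and Gbx2, taken by gene symbol, so they are 10 of the 47729 genes in the deposited table. All 10 are measured, and all 10 passed the filter on low values (at least 1 FPKM in at least 2 libraries), which kept 13981 genes. Every level below is in FPKM, a count of fragments divided by exon length in kilobases and by a scaled library size.

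Messenger RNA came from E14Tg2a, a mouse embryonic stem cell line of strain 129/Ola. The delta 0.7 cells, called delta here, lack on both alleles 674 bp of regulatory DNA of Tcf15, which encodes a helix-loop-helix transcription factor of the basic class. The labels place the deletion on chromosome 2 from 152177049 to 152177722, which, read as mm10, the build in the submitters' notes, is 27.95 kb beyond the annotated end of Tcf15. The wild-type (WT) cells are E14Tg2a without the deletion. Both were grown in serum-free N2B27 medium with 2i and LIF, which is the 0 h state. For 12 or 24 h of induction they were moved to fibronectin-coated plates and given Activin, bFGF and KOSR in N2B27, which turns naive cells into epiblast-like cells. Each genotype and time had 2 libraries, 12 libraries in 6 groups. The column names carry 1 clone name for delta, so genotype and clone cannot be told apart. The labels do not say that replicates were separate cultures, so the p-values measure only the spread between these libraries, which may be technical.

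The naive factors form a network of transcription factors that bind one another's regulatory DNA and hold mouse embryonic stem cells in a state like that of the preimplantation epiblast. LIF feeds the network through Stat3, Gsk3 inhibition relieves repression by Tcf7l1, and Mek inhibition blocks the FGF signal that dismantles it. On exit from 2i and LIF the network is known to be taken down, while Pou5f1 and Sox2, which serve both states, are kept. Nanog is a homeodomain protein. Esrrb and Nr5a2 are orphan nuclear receptors, and Nr0b1 is an atypical nuclear receptor that acts mostly as a corepressor. Tfcp2l1 is a grainyhead-type factor and a Stat3 target, Tbx3 a T-box factor and Gbx2 a homeodomain factor that is also a Stat3 target. Prdm14 is a PR-domain protein that represses FGF receptor signalling and DNA methyltransferases, Zfp42 (Rex1) is a zinc finger protein derived from Yy1, and Spic is an Ets factor better known from macrophages.

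On mm10, with GENCODE M21, 4 of the 10 genes lie on chromosome 1 and the others on 6 different chromosomes, none of them on chromosome 2. Nanog spans chromosome 6 from 122707489 to 122714633, Nr0b1 chromosome X from 86191764 to 86195947 and Zfp42 chromosome 8 from 43295063 to 43306980. Their spans run from 3.22 kb (Gbx2) to 160.5 kb (Esrrb). The promoters of 4 members are shown because they stand for the patterns described below: Nanog had the furthest value between genotypes, Zfp42 the highest level, Tfcp2l1 a fall at the far end of the log2(FPKM + 1) scale and Nr0b1 the only called rise. Each window is the RefSeq sequence (GRCm38.p6) from 250 bases before to 50 bases after the gene's start, 5′ to 3′ on the gene's strand, and capitals mark the motifs found by a search on both strands.
Nanog, chr6:122707239-122707538, plus strand: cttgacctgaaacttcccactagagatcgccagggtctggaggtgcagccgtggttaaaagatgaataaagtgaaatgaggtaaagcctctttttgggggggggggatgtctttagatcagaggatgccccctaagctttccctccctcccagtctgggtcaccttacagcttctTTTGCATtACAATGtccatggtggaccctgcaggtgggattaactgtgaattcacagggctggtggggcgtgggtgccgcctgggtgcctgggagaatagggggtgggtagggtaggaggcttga
Zfp42, chr8:43306960-43307259, minus strand: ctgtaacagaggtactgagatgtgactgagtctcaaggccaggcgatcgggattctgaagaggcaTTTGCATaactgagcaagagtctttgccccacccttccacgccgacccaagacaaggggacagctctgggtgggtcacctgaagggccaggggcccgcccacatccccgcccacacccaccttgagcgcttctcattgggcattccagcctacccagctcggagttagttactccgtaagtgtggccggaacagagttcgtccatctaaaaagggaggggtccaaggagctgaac
Tfcp2l1, chr1:118627695-118627994, plus strand: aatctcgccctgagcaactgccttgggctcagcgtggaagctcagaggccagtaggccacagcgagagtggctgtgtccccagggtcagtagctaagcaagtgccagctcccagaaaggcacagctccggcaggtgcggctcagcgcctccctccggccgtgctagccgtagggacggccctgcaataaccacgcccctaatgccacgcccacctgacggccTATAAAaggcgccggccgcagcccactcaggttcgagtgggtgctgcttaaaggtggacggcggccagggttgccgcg
Nr0b1, chrX:86191525-86191824, plus strand: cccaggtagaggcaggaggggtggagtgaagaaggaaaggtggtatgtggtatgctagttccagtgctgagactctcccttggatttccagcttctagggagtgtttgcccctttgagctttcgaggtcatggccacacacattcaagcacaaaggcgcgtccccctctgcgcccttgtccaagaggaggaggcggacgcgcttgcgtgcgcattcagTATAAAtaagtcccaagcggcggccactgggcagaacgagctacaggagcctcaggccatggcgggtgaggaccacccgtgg

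In the Nanog window the capitals mark the octamer core ATGCAAA, read on the opposite strand as TTTGCAT, 75 to 69 bases before the start, and then the SOX core ACAATG 67 to 62 bases before it. A pair of this kind is the known composite site of Pou5f1 and Sox2. Nanog has a second start in RefSeq, and the same site lies 151 to 145 and 143 to 138 bases before that start. Zfp42 holds the octamer core at 185 to 179 bases before its start, with no SOX core in the window. The capitals in Tfcp2l1 and Nr0b1 are the TATA box letters TATAAA, at 28 to 23 and at 32 to 27 bases before the start. RefSeq gave promoter windows for 8 of the 10 members, 11 windows in all because some genes have more than 1 start. Of all 32851 windows, 4.63% hold ATGCAAA, 12.6% hold ACAATG and 13.6% hold TATAAA. None of the 11 holds the STAT palindrome TTCCNGGAA, the nuclear receptor half-site TCAAGGTCA or the TCF/LEF core ATCAAAG, which occur in 1.15%, 0.423% and 3.73% of all windows. A match in these windows is a description of letters only, and its absence says nothing of the factor.

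Recovered depth was 9740851 to 17571255 reads a library. The library size behind the FPKM was 75.5% of the recovered reads in delta 0 h replicate 1 and 92.2% to 107% elsewhere. Levels in that library are therefore scaled up relative to its reads. With this scaling, 1 read per kilobase was worth 0.0569 to 0.111 FPKM, the highest in that library. Tcf15 stood at 4.44 and 2.76 FPKM in delta cells at 24 h and at 99.4 and 55.4 FPKM in WT cells, in the direction the labels give. Embryonic stem cell markers (6 of 6 at 1 FPKM or more) summed to 1125 to 1934 FPKM in every library, and none of 7 primitive endoderm markers or 5 markers of 2-cell-like cells reached 1 FPKM in any. Other lists were not empty. Primitive streak markers (5 of 6 reaching 1 FPKM) summed to 45.6 to 206 FPKM at 0 h and 1.62 to 2.55 FPKM at 24 h. Trophoblast markers (3 of 6) summed to 15.2 to 28.2 FPKM at 0 h and 2.05 to 3.24 FPKM at 24 h. Over all libraries, neural markers (2 of 5) summed to 10.5 to 46.4 FPKM and primordial germ cell markers (5 of 5) to 14.2 to 31.2 FPKM. The replicate 1 libraries at 0 h stood apart from the rest: cytosolic ribosomal protein genes took 13.5% (delta) and 11.5% (WT) of their reads, against 5.75% to 7.52% elsewhere. Results that rest on the 0 h libraries are therefore given with and without these 2 libraries where that changes a call.

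**Figure D1:**
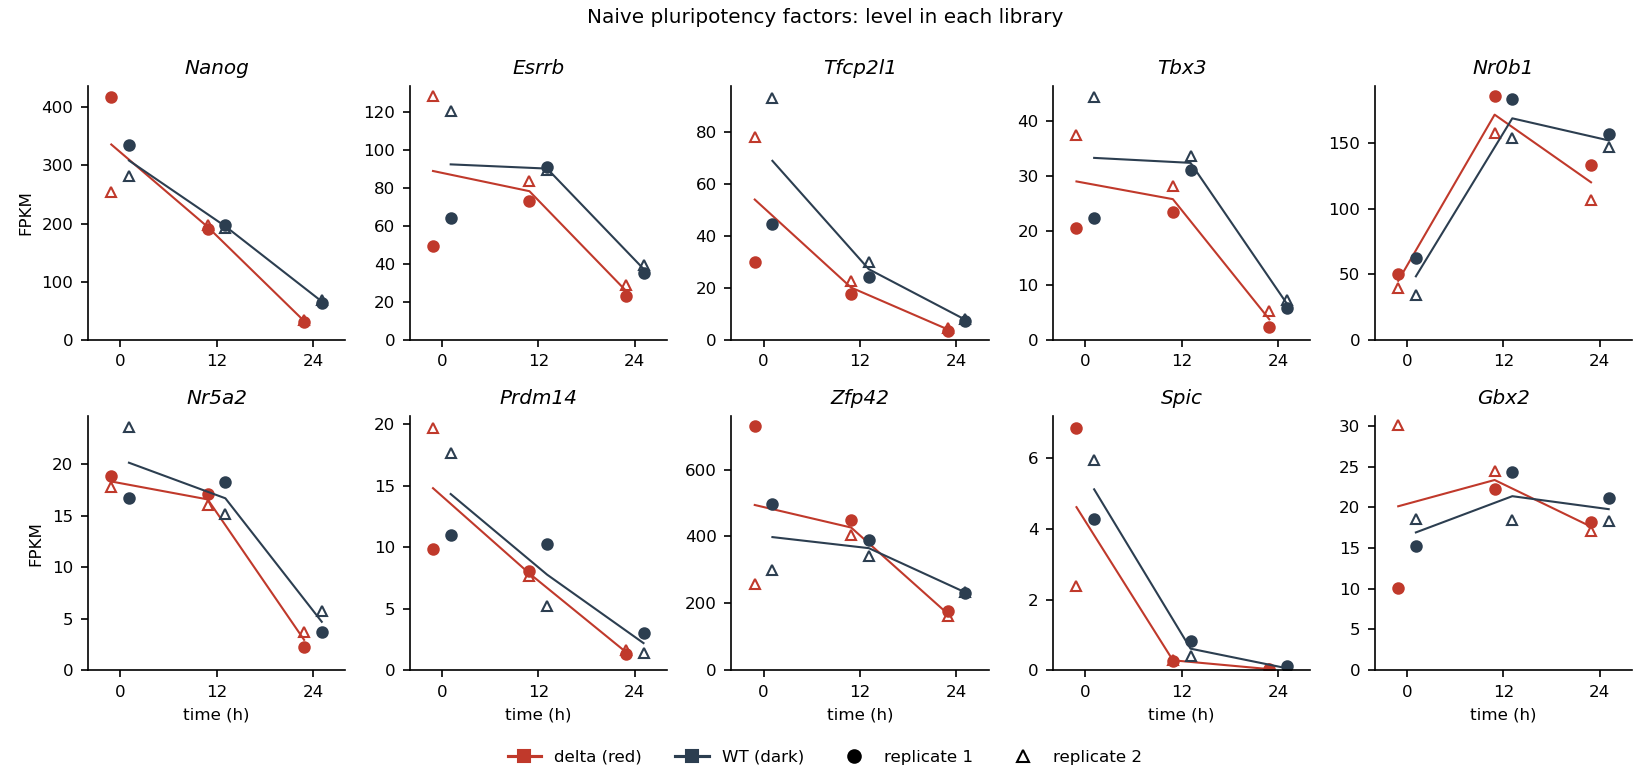
Level of each factor in FPKM (vertical axes, linear, each gene on its own scale) against time in hours, with delta in red and WT in dark blue. Filled circles are replicate 1 libraries, open triangles replicate 2 libraries, and lines join the means of 2 libraries. Nanog, Esrrb, Tfcp2l1, Tbx3, Nr5a2, Prdm14 and Zfp42 end below their 0 h libraries in both genotypes, Spic nears 0, Nr0b1 ends above, and Gbx2 stays between 10.1 and 30.2 FPKM.

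Most of the network was down by 24 h in both genotypes, Nr0b1 was up, and Gbx2 had no called change. The summed level of the 10 genes was 1344 and 866 FPKM at 0 h, 988 and 942 FPKM at 12 h and 391.6 and 363 FPKM at 24 h in delta cells. In WT cells the sum was 1074 and 939 FPKM at 0 h, 971 and 879 FPKM at 12 h and 528 and 529.6 FPKM at 24 h. The 24 h sums were thus the lowest in each genotype, and the delta libraries lay below the WT libraries there. Zfp42 alone, whose own 24 h change was not called, made up 29.7% to 54.4% of the sum in each library. The other 9 genes summed to 215 and 201 FPKM in delta and 297 and 296 FPKM in WT at 24 h, and to 613 and 609 FPKM in delta and 576 and 640.3 FPKM in WT at 0 h. The 10 genes took 0.0916% and 0.0925% of reads in delta and 0.130% and 0.137% in WT at 24 h, and 0.245% to 0.337% in the 4 libraries at 0 h. The 0.245% was that of delta 0 h replicate 1, the library with the highest sum. In bulk RNA, fewer naive cells and less of these transcripts per cell cannot be told apart.

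The order of levels changed with time. At 0 h Zfp42 and Nanog led in both genotypes, with overlapping libraries, and Spic was lowest. Nanog lay above the next gene, Esrrb, in both libraries, while from Esrrb down to Prdm14 neighbours in the order overlapped, save that Nr0b1 lay above Tbx3 in both delta libraries. By 24 h the order in both genotypes was Zfp42, Nr0b1, Nanog, Esrrb, Gbx2, Tfcp2l1, Tbx3, Nr5a2, Prdm14 and Spic. Neighbours were then apart in both libraries except Tfcp2l1 and Tbx3 in both genotypes and Tbx3 and Nr5a2 in delta. Nr0b1 thus held the second place at 24 h, against the fifth at 0 h, and Gbx2 had passed Tfcp2l1 and Tbx3.

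Nanog, the homeodomain factor at the head of the network, stood at 417 and 255 FPKM at 0 h, 191 and 197 FPKM at 12 h and 31.1 and 33.4 FPKM at 24 h in delta cells. WT libraries stood at 335 and 282 FPKM at 0 h, 198 and 193 FPKM at 12 h and 63.3 and 68.5 FPKM at 24 h. In both genotypes the libraries of the 3 times did not overlap. The 24 h mean was 9.60% of the 0 h mean in delta and 21.4% in WT. On the log2(FPKM + 1) scale of the limma fit, Nanog fell by 3.30 ± 0.24 in delta (SE, adjusted p = 6.42e-05) and fell by 2.21 ± 0.24 in WT (adjusted p = 0.000635) from 0 to 24 h. At 12 h the changes were -0.75 (delta, adjusted p = 0.101) and -0.65 (WT, adjusted p = 0.198), neither called. Without the replicate 1 libraries at 0 h those 12 h changes were -0.39 (adjusted p = 0.0458) and -0.53 (adjusted p = 0.0276), both called. The WT value was also called without either delta 0 h library (adjusted p = 0.0283 and 0.0289), and the delta value was -1.1005 without delta 0 h replicate 2 (adjusted p = 0.00835). The pseudogene Nanog-ps1 had at most 0.790 FPKM and Nanog-ps2 was at 0.

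Esrrb, which shares targets with Nanog and is a Tcf7l1-repressed gene, stood at 49.5 and 129 FPKM at 0 h, 72.9 and 83.8 FPKM at 12 h and 23.0 and 28.8 FPKM at 24 h in delta cells. In WT cells the levels were 64.2 and 121 FPKM at 0 h, 91.2 and 89.3 FPKM at 12 h and 35.1 and 39.6 FPKM at 24 h. The 0 h libraries of each genotype lay on either side of the 12 h libraries, and both 24 h libraries lay below all others. At 12 h the change was -0.03 in delta and 0.03 in WT, and the delta value was -0.71 without the replicate 1 libraries at 0 h (adjusted p = 0.028). Esrrb fell by 1.60 ± 0.42 in delta at 24 h (adjusted p = 0.0329). The WT value, -1.22 ± 0.42, was not called (adjusted p = 0.106), but was called without either delta 0 h library (adjusted p = 0.0184 and 0.0183) and without both replicate 1 libraries at 0 h (-1.67, adjusted p = 0.0011). The delta call was lost in 9 of the 12 fits that left out a library, with an adjusted p of up to 0.175 without delta 24 h replicate 1 and a change of -0.92 without delta 0 h replicate 2. It was also lost with no filter on low genes (adjusted p = 0.0673). The WT value at 24 h was called with a replicate block (adjusted p = 0.0372).

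Tfcp2l1, the Stat3 target, had the furthest 24 h value below 0 of the 10 on the log2(FPKM + 1) scale, though in delta it was within 1 SE of that of Nanog and the scale understates a gene as low as Spic. It stood at 29.8 and 78.3 FPKM at 0 h, 17.5 and 22.7 FPKM at 12 h and 3.50 and 4.53 FPKM at 24 h in delta cells. The WT levels were 44.6 and 93.3 FPKM at 0 h, 24.4 and 30.02 FPKM at 12 h and 7.34 and 8.12 FPKM at 24 h. Every later library lay below every earlier one in each genotype. At 24 h Tfcp2l1 fell by 3.31 ± 0.45 in delta (adjusted p = 0.0015) and fell by 2.91 ± 0.45 in WT (adjusted p = 0.00369). At 12 h the mean was 37.2% of the 0 h mean in delta and 39.4% in WT, with changes of -1.24 and -1.23 that were not called (adjusted p = 0.139 and 0.198). With a replicate block both of these changes were called (adjusted p = 0.0357 and 0.0487). Without the replicate 1 libraries at 0 h they were -1.92 (adjusted p = 0.00259) and -1.75 (adjusted p = 0.00551), and the delta value was called without delta 0 h replicate 1 alone (adjusted p = 0.0222).

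Tbx3, a T-box factor that sustains Nanog expression, had 12 h means of 88.8% (delta) and 97.3% (WT) of the 0 h mean and was low at 24 h. It stood at 20.6 and 37.4 FPKM at 0 h, 23.4 and 28.1 FPKM at 12 h and 2.30 and 5.18 FPKM at 24 h in delta cells. In WT cells the levels were 22.2 and 44.4 FPKM at 0 h, 31.1 and 33.7 FPKM at 12 h and 5.81 and 7.36 FPKM at 24 h. The 12 h libraries lay between the 0 h libraries, and the 24 h libraries lay below all others. Tbx3 fell by 2.67 ± 0.40 in delta (adjusted p = 0.00257) and fell by 2.11 ± 0.40 in WT (adjusted p = 0.0109) at 24 h. The WT call was lost without WT 0 h replicate 2 (adjusted p = 0.0618) or WT 24 h replicate 1 (adjusted p = 0.0868). The antisense gene Tbx3os1, whose exons overlap those of Tbx3, stood at 0.144 to 3.07 FPKM, and strand handling in the counting is not known from the labels.

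Gbx2, a Stat3 target that can hold the naive state when forced, had no called change in either genotype. It stood at 10.1 and 30.2 FPKM at 0 h, 22.3 and 24.4 FPKM at 12 h and 18.2 and 17.1 FPKM at 24 h in delta cells. In WT cells the levels were 15.3 and 18.6 FPKM at 0 h, 24.4 and 18.4 FPKM at 12 h and 21.2 and 18.4 FPKM at 24 h. The delta 0 h libraries enclosed all other delta libraries. The 24 h change was 0.00 ± 0.40 in delta and 0.22 ± 0.40 in WT, neither called. At 12 h the delta value was 1.14 without delta 0 h replicate 2 (adjusted p = 0.0121), against 0.39 with it (adjusted p = 0.564). The delta 24 h value turned on its 0 h libraries, at -0.74 without replicate 1 (adjusted p = 0.049, or 0.0226 without that of WT too) and 0.75 without replicate 2 (adjusted p = 0.0278). D130058E05Rik, on the opposite strand with overlapping exons, stood at 5.36 to 12.7 FPKM.

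Nr5a2, which binds the Pou5f1 regulatory region, had 12 h means of 90.5% (delta) and 82.8% (WT) of the 0 h mean. It stood at 18.8 and 17.8 FPKM at 0 h, 17.1 and 16.0 FPKM at 12 h and 2.21 and 3.66 FPKM at 24 h in delta cells. In WT cells it stood at 16.7 and 23.6 FPKM at 0 h, 18.2 and 15.1 FPKM at 12 h and 3.67 and 5.71 FPKM at 24 h. The 24 h libraries lay far below the rest in both genotypes. Nr5a2 fell by 2.32 ± 0.26 in delta (adjusted p = 0.000548) and fell by 1.90 ± 0.26 in WT (adjusted p = 0.00203). Both calls, like those for Nanog and Tfcp2l1 at 24 h in either genotype, were made in each of the 12 fits that left out a library.

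Nr0b1 (Dax1), which binds Nr5a2 and Esrrb and dampens their activity in mouse stem cells, went the other way. It stood at 50.3 and 39.7 FPKM at 0 h, 186 and 158 FPKM at 12 h and 134 and 107 FPKM at 24 h in delta cells. WT libraries had 62.7 and 34.1 FPKM at 0 h, 184 and 154 FPKM at 12 h and 157 and 147 FPKM at 24 h. All later libraries lay above all 0 h libraries. Nr0b1 rose by 1.91 ± 0.29 in delta (adjusted p = 0.00564) and by 1.84 ± 0.29 in WT (adjusted p = 0.00842) at 12 h. At 24 h it was 1.40 ± 0.29 above 0 h in delta (adjusted p = 0.0114) and 1.69 ± 0.29 in WT (adjusted p = 0.00598). Each of these 4 calls was lost when the replicate 1 library of its own later group was left out, with adjusted p of 0.0713 (delta) and 0.0867 (WT) at 12 h and 0.0956 (delta) and 0.0529 (WT) at 24 h.

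Prdm14, the PR-domain repressor that is also needed by germ cells, stood at 9.87 and 19.7 FPKM at 0 h, 8.04 and 7.67 FPKM at 12 h and 1.32 and 1.63 FPKM at 24 h in delta cells. In WT cells it stood at 10.97 and 17.7 FPKM at 0 h, 10.3 and 5.23 FPKM at 12 h and 3.01 and 1.38 FPKM at 24 h. Every later library lay below every earlier one in each genotype. Prdm14 fell by 2.60 ± 0.41 in delta (adjusted p = 0.00299) and fell by 2.28 ± 0.41 in WT (adjusted p = 0.00778) at 24 h. The WT call was lost without WT 0 h replicate 2 (adjusted p = 0.0505) or WT 24 h replicate 2 (adjusted p = 0.0657). At 12 h its mean was 53.1% of the 0 h mean in delta and 54.2% in WT, with changes of -0.76 and -0.83 that were not called.

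Zfp42, the classical Rex1 marker of the naive state, kept the highest level of the 10 throughout. It stood at 731 and 257 FPKM at 0 h, 449 and 404 FPKM at 12 h and 176 and 161 FPKM at 24 h in delta cells. In WT cells it stood at 497 and 299 FPKM at 0 h, 389 and 340.3 FPKM at 12 h and 232 and 233 FPKM at 24 h. The 0 h libraries lay on either side of the 12 h libraries, and the 24 h libraries lay below all others. The 24 h mean was 34.2% of the 0 h mean in delta and 58.4% in WT. The changes, -1.36 ± 0.43 (delta, adjusted p = 0.0672) and -0.73 ± 0.43 (WT, adjusted p = 0.357), were not called. With a replicate block the delta change was called (adjusted p = 0.0278). In delta the 24 h change was -2.11 without 0 h replicate 2 (adjusted p = 0.0024) and -0.60 without both replicate 1 libraries at 0 h (adjusted p = 0.0158). Without those libraries the delta 12 h value was 0.73 (adjusted p = 0.0129), against -0.03 with them.

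Spic was the lowest of the 10, with less than 1 FPKM in every library after 0 h. It passed the filter only through its 0 h libraries, so its difference from them was built in and its calls are a description. It stood at 6.85 and 2.39 FPKM at 0 h, 0.272 and 0.283 FPKM at 12 h and 0.0338 and 0.0201 FPKM at 24 h in delta cells. In WT cells it stood at 4.29 and 5.96 FPKM at 0 h, 0.823 and 0.391 FPKM at 12 h, and 0.102 and 0 FPKM at 24 h. These values rest on 236 and 161, then 13 and 15, then 2 and 1 reads in delta, and on 167 and 298, then 55 and 15, then 5 and 0 reads in WT. The count of 0 allows up to 3 reads, or 0.0689 FPKM, by counting error alone. At 12 h it fell by 2.01 ± 0.35 in delta (adjusted p = 0.0108) and fell by 1.93 ± 0.35 in WT (adjusted p = 0.0175). At 24 h it fell by 2.33 in delta (adjusted p = 0.00257) and fell by 2.53 in WT (adjusted p = 0.00222), on a scale that understates the change of so low a gene. The 12 h call was lost in delta without 12 h replicate 1 (adjusted p = 0.0914) or 2 (adjusted p = 0.081). In WT it was lost without any 1 of the 0 h or 12 h libraries (adjusted p = 0.0518 to 0.115). Of the 5 macrophage markers, the cells Spic is otherwise known from, Cd68 ranged from 7.36 to 29.2 FPKM, Csf1r from 1.16 to 3.53 FPKM and Spi1 from 0 to 1.31 FPKM. Ptprc had at most 0.0241 FPKM and Adgre1 was at 0 in every library. Cd68 was highest at 24 h, where Spic was lowest, Spi1 had its highest mean at 0 h in both genotypes, and the part of such cells in the level of Spic was not tested.

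In the first 12 h few factors changed by test. Beside Spic, whose lower call was built in by the filter, Nr0b1 was called higher in each genotype and the other 8 were not called. The 12 h and 24 h comparisons share their 0 h libraries. Over all genes, 3.55% were called higher and 3.45% lower in delta, and 2.13% higher and 1.9% lower in WT. The median change of the 10 was -0.12 in delta and -0.16 in WT, and over all genes it was -0.03 and -0.02. Without Spic it was -0.11 in delta and -0.08 in WT. At 24 h against 0 h, 7 of 10 were called lower in delta (Nanog, Esrrb, Tfcp2l1, Tbx3, Nr5a2, Prdm14 and Spic) and 6 of 10 in WT (Nanog, Tfcp2l1, Tbx3, Nr5a2, Prdm14 and Spic), with Nr0b1 higher in both. The shares of all genes called at 24 h were 7.8% lower and 7.58% higher in delta, and 4.94% lower and 5.27% higher in WT. The median of the 10 was then -2.32 in delta and -2.002 in WT, beside -0.05 and -0.03 over all genes. Leaving out Spic, 6 of 9 were called lower in delta and 5 of 9 in WT, with medians of -2.32 and -1.90. Without the replicate 1 libraries at 0 h, more factors and more genes overall were called. At 12 h these were 2 factors higher and 4 lower in delta, beside 17.1% of all genes in either direction, and 1 higher and 3 lower in WT, beside 8.52%. At 24 h they were 1 higher and 9 lower in delta, beside 28.2%, and 1 higher and 7 lower in WT, beside 20.6%, Spic being among the lower each time.

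**Figure D2:**
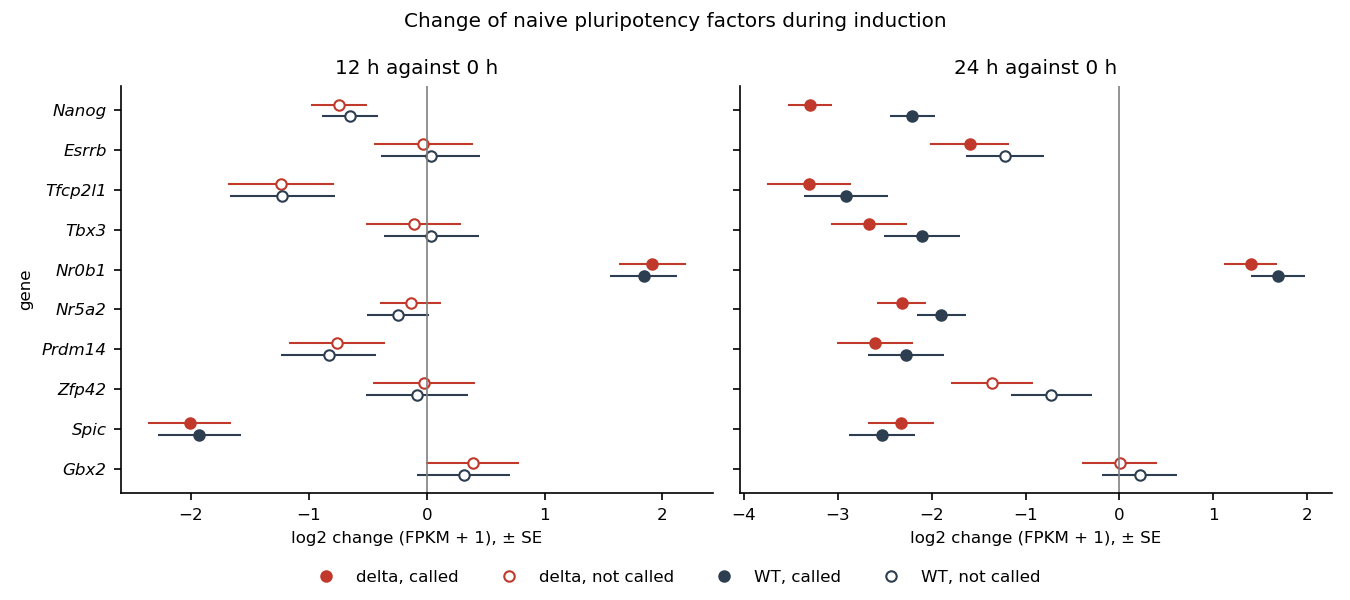
Log2 change of each factor from 0 h, at 12 h (left) and 24 h (right), delta in red above WT in dark blue, with bars of 1 SE from the limma fit on log2(FPKM + 1). Filled points passed an adjusted p of 0.05. At 12 h only Nr0b1 and Spic are filled, in both genotypes, and Spic passed the filter only through its 0 h libraries. At 24 h 8 factors are filled in delta and 7 in WT.

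The fall of Nanog, Tbx3 and Nr5a2 was larger after 12 h than before it on the log2 scale. Between 12 and 24 h, Nanog fell by 2.55 ± 0.24 in delta (adjusted p = 0.00249) and fell by 1.55 ± 0.24 in WT (adjusted p = 0.0406). Nr5a2 fell by 2.18 ± 0.26 in delta (adjusted p = 0.00659) and fell by 1.65 ± 0.26 in WT (adjusted p = 0.0406). Tbx3 fell by 2.56 ± 0.40 in delta (adjusted p = 0.0195), and its WT value, -2.14 ± 0.40, was not called (adjusted p = 0.0689). Thus 3 of 10 were called lower in delta and 2 of 10 in WT, with none higher, beside 0.601% lower and 0.758% higher of all genes in delta and 0.157% lower and 0.25% higher in WT. All 10 changes were below 0 in each genotype, with medians of -1.70 in delta and -1.35 in WT. Over all genes, 47.2% of changes in delta and 48.2% in WT were above 0. The fit shares 1 spread per gene over the 6 groups. The 0 h libraries therefore move the adjusted p of these 12 to 24 h changes but not their size. With a replicate block, Esrrb (adjusted p = 0.0458) and Tfcp2l1 (0.0121) were also called in delta, and Tfcp2l1 (0.0432) and Tbx3 (0.0128) in WT. The WT calls of Nanog and Nr5a2 were kept in only 2 of 12 fits that left out a library, those without a delta 0 h library, and adjusted p reached 0.359 and 0.368 without WT 24 h replicate 1. Both were also lost with a pseudocount of 0.1 (adjusted p = 0.0516 and 0.0567) and with no filter (0.0567 and 0.0614). In delta, Nanog was called in all 12 fits. The Tbx3 call was lost without any 1 of the delta 12 h or 24 h libraries (adjusted p = 0.0589 to 0.208), and the Nr5a2 call without delta 12 h replicate 1, delta 12 h replicate 2 or delta 24 h replicate 1 (0.0715, 0.0944 and 0.0927). Without either delta 0 h library, WT Tbx3 was called too (adjusted p = 0.0395 and 0.0392), and in delta so were Esrrb (0.0262 and 0.0261), Tfcp2l1 (0.0157 and 0.0153), Prdm14 (0.0371 and 0.0369) and Zfp42 (0.0277 and 0.0277). Without both replicate 1 libraries at 0 h, 7 were called lower in delta and 6 in WT, beside 5.35% and 2.59% of all genes in either direction.

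The difference between the second and the first 12 h was tested as 1 contrast averaged over genotypes. It was -2.32 ± 0.49 for Tbx3 (adjusted p = 0.0383), -2.21 ± 0.35 for Nr0b1 (adjusted p = 0.0122), -1.73 ± 0.32 for Nr5a2 (adjusted p = 0.0224) and -1.35 ± 0.29 for Nanog (adjusted p = 0.0394). For Tbx3, Nr5a2 and Nanog the later interval held the larger fall, and for Nr0b1 the rise came first and did not go on. Tfcp2l1 at -0.65 ± 0.55 was not called (adjusted p = 0.565). Spic is not read in this contrast, because its 12 h levels, 0.272 to 0.823 FPKM, lie under the 1 FPKM added before the logarithm and leave little room for a further fall on that scale. So 4 of 10 were called lower and none higher, beside 2.12% lower and 1.37% higher of all genes. Leaving out 1 library kept the call for Nanog in 3 of 12 fits, Tbx3 in 4, Nr5a2 in 6 and Nr0b1 in 9. The highest adjusted p were 0.204, 0.199 and 0.126 for Nanog (without delta 12 h replicate 2), Tbx3 (the same) and Nr5a2 (without delta 12 h replicate 1), and 0.087 for Nr0b1 (without delta 12 h replicate 1). With no filter the calls of Nanog (0.0691) and Tbx3 (0.0839) were lost, and with median-ratio rescaling that of Nanog (0.0526). Zfp42 was called without delta 0 h replicate 1 (-1.31, adjusted p = 0.042), and Esrrb (-1.75, 0.0215) and Gbx2 (-0.97, 0.0348) without delta 0 h replicate 2. Without the replicate 1 libraries of both genotypes at 0 h, Esrrb (-0.85, adjusted p = 0.0274) and Zfp42 (-1.49, adjusted p = 0.00247) were called.

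Between genotypes no factor was called at any time. At 24 h every one of the 10 values was below 0, with Nanog the furthest, while 51% of all genes were above 0. The 10 values come from the same libraries and are not independent, and that of Spic rests on 0 to 5 reads a library. Nanog averaged 32.3 ± 1.64 FPKM in delta and 65.9 ± 3.64 FPKM in WT at 24 h (SD, n = 2 each), so delta held 49.0% of the WT level. Its limma difference was -1.01 ± 0.24 with a 95% interval of -1.54 to -0.47 and an unadjusted p of 0.00211, but an adjusted p of 1 over all genes. Tfcp2l1 averaged 4.02 ± 0.73 FPKM in delta and 7.73 ± 0.55 FPKM in WT at 24 h, a difference of -0.81 (interval -1.81 to 0.20). Tbx3 averaged 3.74 ± 2.04 FPKM in delta and 6.59 ± 1.098 FPKM in WT, a difference of -0.74 (interval -1.65 to 0.17). For Nr5a2 the difference was -0.53 (-1.12 to 0.05), for Esrrb -0.52 (-1.47 to 0.43), for Zfp42 -0.46 (-1.44 to 0.52) and for Nr0b1 -0.35 (-0.99 to 0.30). Prdm14 at -0.32, Gbx2 at -0.16 and Spic at -0.03 were the smallest in size.

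At 24 h both delta libraries lay below both WT libraries for 8 of the 10 factors, beside 16.4% of all genes. Prdm14 and Spic overlapped, and Nr5a2 (3.66 FPKM in the higher delta library, 3.67 FPKM in the lower WT library) and Gbx2 (18.2 FPKM in the higher delta library, 18.4 FPKM in the lower WT library) were apart by very little. The median of the 10 differences was -0.49, and over all genes it was 0.00. None of the 10 was called there, beside 0.00715% of all genes, and 1 (Nanog) had an unadjusted p under 0.05, beside 1.53% of all genes. The voom fit on recovered reads also called none. Over the alternatives run, no genotype difference of any factor reached an adjusted p of 0.05, and the lowest was 0.0522, for Nanog at 24 h without the replicate 1 libraries at 0 h.

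At 12 h the median difference between genotypes was -0.01, Nanog was at -0.01 (interval -0.54 to 0.53) and Nr5a2 at 0.00 (-0.59 to 0.58). Esrrb, Tfcp2l1, Tbx3 and Spic were lower in both delta libraries than in both WT libraries, so 4 of 10 beside 15.2% of all genes, and Zfp42 was higher, 1 of 10 beside 16.8%. Spic rests there on 13 and 15 reads in delta and 55 and 15 in WT, so its lack of overlap is within counting error. It also passed the filter only through its 0 h libraries. None was called at 12 h (0.0143% of all genes were), and none had an unadjusted p under 0.05 (0.887% of all genes did). At 0 h the median difference was -0.08 and the libraries of all 10 factors overlapped, where 6.21% of all genes were lower and 6.52% higher without overlap. None was called at 0 h (0.00715% of all genes) and none had an unadjusted p under 0.05 (2.02%). With the spread shared over the 6 groups, the interval of a gene was as wide at 0 h as at 12 and 24 h. At 0 h it ran from -1.42 to 0.60 for Tfcp2l1, the widest of the 10, and from -0.45 to 0.62 for Nanog, the narrowest. Differences within these intervals are not excluded. Averaged over the times, none was called (0.0143% of all genes) and 1, Nanog at -0.31 ± 0.14, had an unadjusted p under 0.05 (4.33% of all genes). By voom none was called in any of these contrasts.

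Whether the genotypes differed in their change over time was tested directly. For the 24 h change the difference was -1.09 ± 0.34 for Nanog (unadjusted p = 0.0098, adjusted p = 1 by limma), -0.63 ± 0.61 for Zfp42 and -0.57 ± 0.57 for Tbx3, with 9 of 10 values below 0. Over all genes, 48.3% of these differences were above 0. No factor was called, beside 0% of all genes, and 1 had an unadjusted p under 0.05, beside 0.987% of all genes. For the 12 h change the values lay between -0.15 and 0.11, with none called (0% of all genes) and none under an unadjusted 0.05 (0.615% of all genes). Esrrb was thus called at 24 h in delta and not in WT, but its own difference between genotypes in that change was -0.38 ± 0.59 (adjusted p = 1). The voom fit called none in either contrast.

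**Figure D3:**
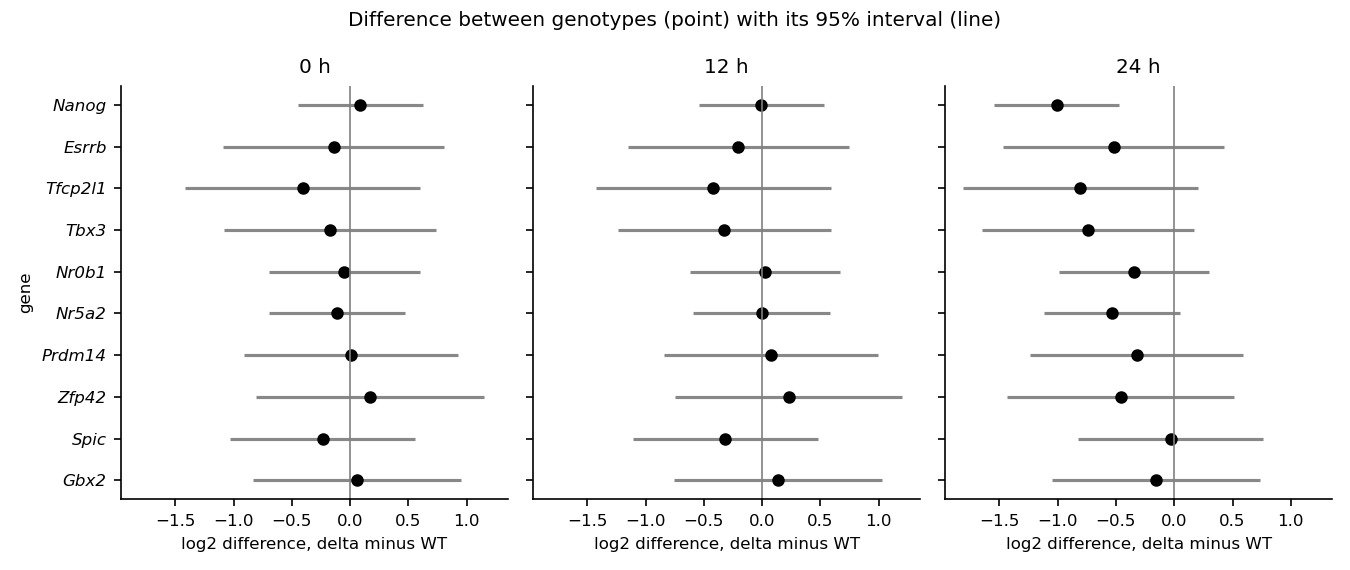
Difference between genotypes (delta minus WT, log2 of FPKM + 1) at 0, 12 and 24 h, each point with its 95% interval from the limma fit. At 24 h all 10 points are at or below 0 and the Nanog interval, -1.54 to -0.47, is the only one that does not include 0. These intervals are not adjusted for the number of genes.

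Markers of the next state had a higher sum in both delta libraries than in both WT libraries at 24 h, where no naive factor was called between genotypes. Formative epiblast markers (9 of 9 at 1 FPKM or more in some library) summed to 567 to 580 FPKM in delta and 371 to 446 FPKM in WT at 24 h, and to 33.2 to 36.5 FPKM in delta and 40.0 to 40.7 FPKM in WT at 0 h. A sum of FPKM is weighted to its highest genes. The median log2 difference of the 9 at 24 h was 0.61. None of the 9 was called between genotypes, and Fgf5 was at 0 in 1 WT library at 0 h. Of 7 fibroblast markers, 6 reached 1 FPKM, and the 7 summed to 25.5 to 29.8 FPKM in delta and 32.8 to 81.7 FPKM in WT at 24 h. At 0 h they summed to 120 to 147 FPKM in delta and 65.0 to 156 FPKM in WT. Macrophage markers, 3 of 5 at 1 FPKM or more, led by Cd68 and with Adgre1 at 0, summed to 30.01 to 31.1 FPKM in delta and 17.7 to 24.1 FPKM in WT. The part of these in the levels of the naive factors was not tested.

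The libraries of a group were furthest apart at 0 h, and the factors fell into sets there. In the replicate 1 libraries of both genotypes, Esrrb, Tfcp2l1, Tbx3, Prdm14 and Gbx2 were lower than in replicate 2, and Nanog, Nr0b1 and Zfp42 were higher. Nr5a2 and Spic differed in sign between the genotypes. The largest gaps were 1.503 (Zfp42) and -1.49 (Gbx2), both in delta, as log2 differences of replicate 1 minus replicate 2. The median size of the gap over the 10 was 1.07 in delta and 0.69 in WT at 0 h, and 0.14 to 0.25 at 12 and 24 h. Over all genes it was 0.59 and 0.42 at 0 h and 0.14 to 0.19 later. The replicate 1 libraries at 0 h are also those with the high share of ribosomal protein reads, and the part of this in the gaps was not tested.

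**Figure D4:**
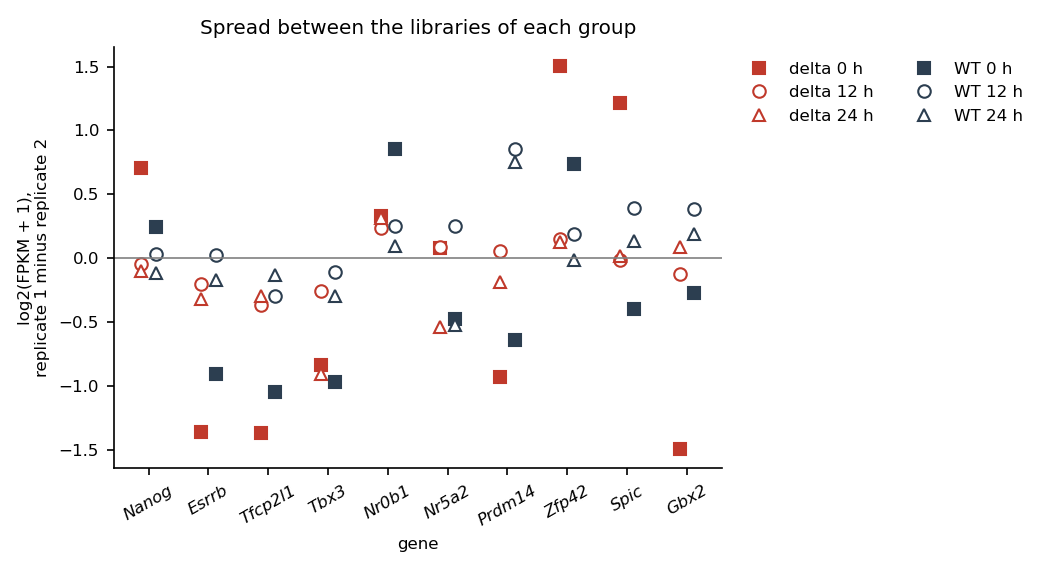
Difference between the 2 libraries of each group (replicate 1 minus replicate 2, log2 of FPKM + 1) for each factor. Filled squares are 0 h, open circles 12 h and open triangles 24 h, with delta in red and WT in dark blue. The squares reach 1.503 for Zfp42 and -1.49 for Gbx2, and most later points lie nearer 0.

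Likeness of profiles was described over the 12 libraries, which fall into shared groups, among 7873 other genes with at least 5 FPKM in some group. The closest to Nanog was Tcl1, an Akt coactivator of naive cells (Pearson r = 0.984), and to Prdm14 the naive factor Klf5 (r = 0.975). Spic was followed most closely by Ackr3, an atypical chemokine receptor (r = 0.976). For Tfcp2l1 the closest was Ly75 (r = 0.993), for Esrrb Plekhh1 (0.986), for Tbx3 Gprc5a (0.985), for Zfp42 Plscr1 (0.977), for Nr5a2 Pdha1 (0.975) and for Gbx2 Kctd18 (0.946). Among the factors themselves, Tbx3 and Nr5a2 were most alike (r = 0.972), then Esrrb and Tbx3 (0.967) and Nanog and Nr5a2 (0.957). The least alike were Nr0b1 and Spic (r = -0.862), and the closest to Gbx2 was Esrrb (0.428).

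Other naive genes, of the Klf, LIF-response and surface-protein kinds, fell in part. Of 18 listed, 17 passed the filter, and at 24 h 9 were called lower in each genotype, with 1 higher in delta (Fgf4, the ligand that drives exit, at 0.88) and none in WT. Their median change was -1.63 in delta and -1.42 in WT, beside -0.05 and -0.03 over all genes. Of all genes, 7.8% were called lower and 7.58% higher in delta, and 4.94% and 5.27% in WT. Socs3, the Stat3 feedback inhibitor, changed by -4.43 in delta and -4.19 in WT. Jam2 changed by -2.74 and -2.24, Klf2 by -2.86 and -2.33, and Tcl1 by -2.32 and -1.77, in that order of genotypes and all called.

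Core pluripotency genes were called higher or not at all. At 24 h 4 of 8 were called higher in both genotypes and none lower, with medians of 0.90 in delta and 0.68 in WT. The shares of all genes called higher were 7.58% in delta and 5.27% in WT. Among the higher were Utf1 at 2.79 in delta and 2.69 in WT, Dppa4 at 1.40 and 1.47 and Lin28a at 1.39 and 1.22. Pou5f1, the Oct4 gene, ranged from 535 to 1111 FPKM over all libraries, with changes of -0.30 in delta and -0.18 in WT that were not called. Sox2 ranged from 213 to 342 FPKM, with changes of -0.28 and -0.06, not called.

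Of 23 known regulators of the naive factors, 22 passed the filter. At 24 h 9 were called higher and 1 lower in delta, and 6 higher and 1 lower in WT, with medians of 0.63 and 0.45. More of all genes were called in delta too, 7.58% higher and 7.8% lower, against 5.27% and 4.94% in WT. The lower one in both was Stat3, the effector of LIF, at -1.24 in delta (adjusted p = 0.0262) and -1.52 in WT (adjusted p = 0.0141). Higher in both were Dusp6, a feedback phosphatase of ERK (2.89 in delta, 2.43 in WT), Rbpj, the Notch effector (1.64 and 1.40), Zic2 (2.72 and 2.83) and Zfp281 (1.37 and 1.15). Otx2, which drives exit, changed by 4.22 in delta and 3.45 in WT, and Tcf7l1, the repressor of Esrrb and Nanog, by 1.34 and 1.18, all called. The kinase genes Gsk3a and Gsk3b, whose products are regulated through their activity, were not called in either genotype.

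All 11 cofactors of the naive factors passed the filter. At 24 h 1 of them, Zfp281, which recruits repressors to the Nanog gene, was called higher in each genotype. Of all genes, 7.58% were called higher in delta and 5.27% in WT, so 1 of 11 is no result about the cofactors. The median was 0.28 in delta and 0.14 in WT. Of 14 paralogs, 7 passed the filter. At 24 h 1 was called lower in each genotype, beside 7.8% of all genes in delta and 4.94% in WT. Prdm1 was called lower in delta (-0.89) and Spi1 in WT (-0.99), a call built in by the filter, which Spi1 passed only through 0 h libraries. Esrrg, Tbx2, Nr0b2, Nr5a1 and Gbx1 stayed under 0.2 FPKM in every library, and Yy1, from which Zfp42 derives, ranged from 45.7 to 71.5 FPKM without a call. No gene of these lists was called between delta and WT at 0, 12 or 24 h.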

How the data were processed

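Values were FPKM per gene as the authors deposited them. The submitters' processing notes name build mm10 and the tools featureCounts 1.5.1, STAR 2.5.2b, cutadapt and edgeR 3.16.5, without roles or strand handling. Whole reads were recovered from the steps of low FPKM values and GENCODE M21 exon lengths (lengths from the steps for 5693 genes); 100% of 28657 genes came out whole within 0.01 reads.

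Genes with at least 1 FPKM in at least 2 libraries (13981) entered a limma 3.58.1 fit (R 4.3.3) of log2(FPKM + 1). It had 6 group means and 1 variance per gene shared by the 6 groups, moderated along a trend (degrees of freedom 6 residual, 3.11 prior). Adding 1 makes changes of low genes look smaller. P-values are 2-sided, adjusted by Benjamini-Hochberg over all genes of each of 13 contrasts, and called under 0.05. SE is that of the fit and SD is over 2 libraries. Floors cover counting error only. The fit was run on simulated data with independent noise and 1 spread per gene in every group. The wider spread at 0 h and the likeness of same-numbered libraries were not simulated, so that run does not cover them. Tables used Python 3.11.15.

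The members, lists and tests were chosen with earlier results of these data known. Named genes are every member, the 1 gene most like each by Pearson r (that of Nr0b1 is not reported here), Tcf15, and up to 4 genes of the smallest p in a list; other named genes of the lists and markers were picked after their values were seen. Alternatives were a pseudocount of 0.1, no filter, median-ratio rescaling, a replicate block, omission of both 0 h libraries numbered 1 or of each library and, added after seeing the data, voom on recovered reads.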

Additional observations from a re-analysis of the deposited data

How the results depend on the processing

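The number of the 10 factors called moved with the libraries left out. Without both 0 h libraries numbered 1, it was 6 in delta (17.1% of all genes) and 4 in WT (8.52%) at 12 h against 0 h, 7 in delta (5.35%) and 6 in WT (2.59%) at 24 h against 12 h, and 7, Spic included, for the second against the first 12 h (10.8%). Zfp42 then turned to 0.73 at 12 h in delta and Gbx2 to -0.74 at 24 h in delta, with -0.74 to 0.75 for Gbx2 when either delta 0 h library alone was left out. The number called in WT at 24 h against 12 h was 0 with a pseudocount of 0.1 and 0 without the filter, where the second against the first 12 h gave 2. The causes were not tested. Because the spread of a gene is shared over the 6 groups, leaving out a library moves the adjusted p in every contrast. Voom on recovered reads and median-ratio rescaling kept every number within 1.5 times that reported. Leaving out 1 library gave 0 to 4 (12 h) and 6 to 9 (24 h) factors called against 0 h in delta, 0 to 3 and 5 to 8 in WT, 1 to 7 in delta and 0 to 3 in WT at 24 h against 12 h, and 0 (without WT 12 h replicate 1) to 7 (without delta 0 h replicate 2) for the second against the first 12 h. The shares of all genes called in the pseudocount, unfiltered and single-omission fits are not given here. These counts therefore do not speak for the factors alone. Between genotypes, and in the 2 differences between genotypes in change, the number was 0 under every setting, from 0 to 0 with a library left out.

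Replicate numbers are shared by the groups, but the labels do not say what a number marks. The share of mitochondrial reads was higher in replicate 2 than in replicate 1 in every group. Deviations of same-numbered libraries correlated at 0.70, 0.28 and 0.37 between delta and WT at 0, 12 and 24 h. The lowest of 15 pairs of groups was delta at 0 h with WT at 12 h, at -0.066, and every other pair was positive. With a replicate block, 5 factors in delta (2.5% of all genes) and 4 in WT (1.17%) were called at 24 h against 12 h, 3 (11.5%) and 3 (7.07%) at 12 h and 9 (21.2%) and 8 (15%) at 24 h against 0 h, 4 for the second against the first 12 h (6.15%) and 0 between genotypes. The block added Tfcp2l1 at 12 h in both genotypes, Zfp42 in delta and Esrrb in WT at 24 h, Esrrb and Tfcp2l1 in delta and Tfcp2l1 and Tbx3 in WT at 24 h against 12 h, and removed none. Depth limits Spic, which rests on 0 to 55 reads after 0 h, and 2 libraries a group limit every interval.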
